A study of Mus musculus with 24 samples.

Results

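Siglecf, Plet1, Car4, Krt79, Krt19, Perp, Slc39a2, Kcnip4 and Tc2n are genes that mark mature alveolar macrophages of the mouse lung beside the chitinase-like and Ear genes. They were chosen by symbol in both deposited count tables, 9 of the 49022 genes that the tables share, and their levels were followed through all 8 groups of sorted lung macrophages. All 9 have the same gene model in both tables.

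Alveolar macrophages live on the air side of the alveolus, where they clear surfactant and inhaled particles, and interstitial macrophages live in the tissue behind it. The mature alveolar macrophage is unusual among macrophages in carrying surface proteins and cytoskeletal genes better known from epithelium. Siglecf encodes an inhibitory receptor that binds sialic acid and is also found on eosinophils. Plet1 and Car4 encode proteins held on the outer cell surface by a lipid anchor, Plet1 being known from epithelial progenitors and Car4 being a carbonic anhydrase, an enzyme that interconverts carbon dioxide and bicarbonate. Krt79 and Krt19 encode intermediate filament proteins, a type II and a type I keratin, and Perp encodes a membrane protein of desmosomes that is induced by p53. Slc39a2 encodes the zinc importer ZIP2, Kcnip4 a calcium-binding partner of voltage-gated potassium channels known from neurons, and Tc2n a protein with tandem C2 domains.

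Polyadenylated RNA was sequenced in bulk from macrophages sorted out of the lungs of Spp1-EGFP knock-in mice, in which EGFP reports Spp1, and of wild-type (WT) C57BL/6J mice, after bleomycin at 3 µg per g body weight or PBS into the trachea. Alveolar macrophages (AMs) were sorted as CD11b- SiglecF+ cells and interstitial macrophages (IMs) as CD11b+ SiglecF- cells, and reporter cells were also sorted by EGFP. Bleomycin injures the alveoli and is followed by fibrosis. The 8 groups of 3 libraries were EGFP+ AMs of reporter mice at day 7 after PBS and at day 14 and day 30 after bleomycin, EGFP+ IMs of reporter mice at day 14 and at day 7 after bleomycin, EGFP- IMs of reporter mice at day 7 after bleomycin, and WT IMs at day 7 after bleomycin and at day 7 after PBS. All AM libraries came from reporter mice and from EGFP+ cells. The labels do not say whether replicates are separate mice, so p-values measure the spread between these libraries. Sorted libraries also cannot tell fewer cells of a type from less RNA per cell.

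Total counts ran from 13450053 to 24580620 per library. Spp1 had 191 to 209.6 CPM (counts scaled to the library total) in PBS AMs, 3704 to 6411 CPM in day 14 AMs and 6733 to 6978 CPM in day 30 AMs, and 3554 to 4738 CPM in EGFP+ IMs at day 7, against 449 to 552 CPM in EGFP- IMs at day 7. Itgam, which encodes CD11b, was at 5.65 to 30.9 CPM in the 9 AM libraries, against 151 to 406 CPM in the 15 IM libraries. Siglecf was at 108 to 428 CPM in AM libraries, against 2.43 to 25.7 CPM in IM libraries. Both gates thus matched their labels at the RNA level, and so did the EGFP sort within IMs at day 7. Spp1 in the EGFP+ PBS AMs, though, was below its level in every EGFP- IM library, so across gates and treatments the EGFP label did not follow Spp1 RNA. The summed level of 13 epithelial marker genes was 4556 to 6751 CPM in WT PBS IMs and at most 409.99 CPM in every other library, and that of 8 neutrophil markers was 6604 to 7928 CPM in WT PBS IMs. The 3 EGFP+ IM libraries at day 14 varied among themselves more than the other groups did.

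In PBS AMs the members covered a wide range of levels. On the scale of CPM per kilobase of exon, which allows genes to be compared, Plet1 was highest at 669 ± 20.2 and Krt19 second at 498 ± 19.2 (SD, n = 3). Krt79 at 197 ± 1.61, Car4 at 159 ± 4.30 and Siglecf at 149 ± 4.15 CPM per kilobase followed, and Perp stood at 76.0 ± 0.509. Slc39a2 at 17.5 ± 0.294, Tc2n at 8.08 ± 0.466 and Kcnip4 at 2.34 ± 0.0711 CPM per kilobase were the low members. So both keratins were among the 3 highest members in healthy AMs.

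The levels of all 9 genes in the 24 libraries are plotted gene by gene.

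**Figure D1:**
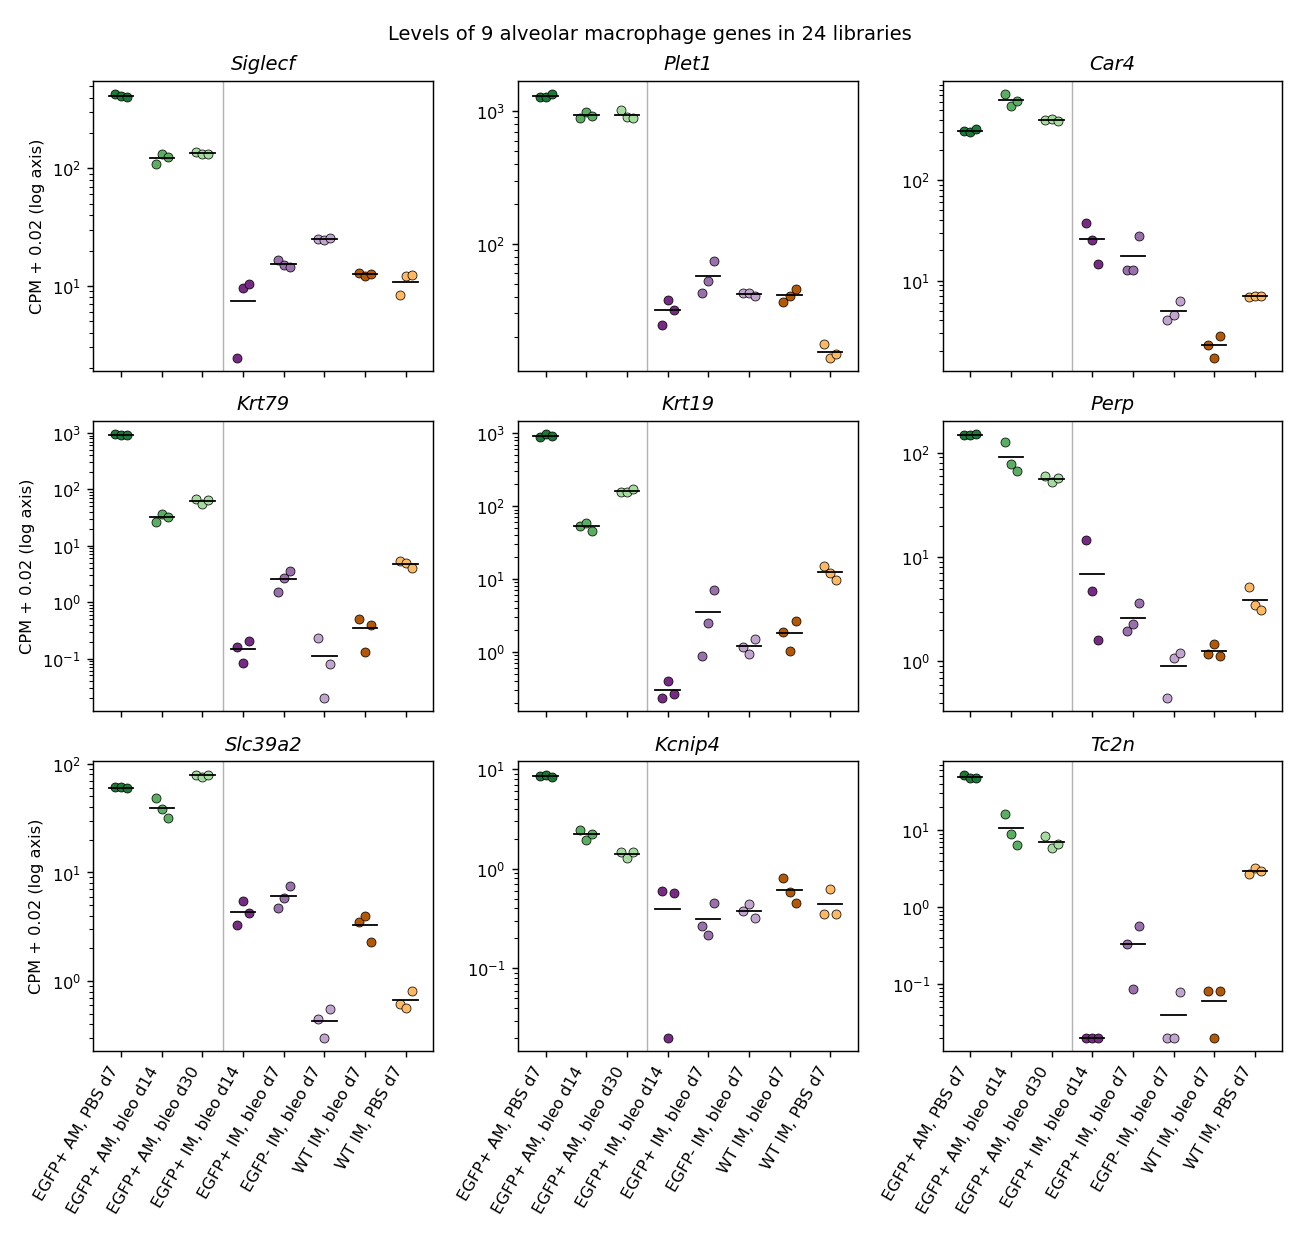
CPM of the library total plus 0.02 (log axes) for each gene in each library, grouped by sort, treatment and day. Points are libraries, bars are group means (n = 3) and the grey line separates AMs from IMs. Every AM library lies above every IM library for each of the 9 genes. The genes were chosen as markers of AMs, and the share of all genes so separated was not counted.

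The starts of 3 members are shown here because they stand for the 3 courses described below: Krt79 fell most after bleomycin, Car4 rose, and Plet1 was the highest member and changed least. Each is the 250 bases before the gene's start in the RefSeq promoter table, on GRCm38.p6, written 5′ to 3′ along the gene's own strand. Krt79 is read at chr15:101940325-101940574 on the minus strand, Car4 at chr11:84957504-84957753 on the plus strand and Plet1 at chr9:50494275-50494524 on the plus strand.
Krt79: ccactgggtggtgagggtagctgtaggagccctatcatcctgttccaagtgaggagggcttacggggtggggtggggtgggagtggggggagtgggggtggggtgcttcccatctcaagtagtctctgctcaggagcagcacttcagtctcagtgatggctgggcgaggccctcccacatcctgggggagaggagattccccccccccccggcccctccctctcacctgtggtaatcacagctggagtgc
Car4: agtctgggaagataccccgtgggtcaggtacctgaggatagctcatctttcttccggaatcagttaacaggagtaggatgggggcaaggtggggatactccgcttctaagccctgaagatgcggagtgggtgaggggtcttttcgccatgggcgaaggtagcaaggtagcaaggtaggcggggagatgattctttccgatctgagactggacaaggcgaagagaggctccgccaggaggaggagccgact
Plet1: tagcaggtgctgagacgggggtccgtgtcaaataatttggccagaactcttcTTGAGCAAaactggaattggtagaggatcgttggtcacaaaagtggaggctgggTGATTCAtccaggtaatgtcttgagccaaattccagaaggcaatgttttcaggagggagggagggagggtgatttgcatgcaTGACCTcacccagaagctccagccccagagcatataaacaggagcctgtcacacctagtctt
Capitals mark matches to 6 short motifs searched on both strands of these windows: the nuclear receptor half-site AGGTCA, a PU.1-type site GAGGAAGT, the AP-1 site TGANTCA, the E-box CACGTG, a C/EBP-type site TTGCNNAA and a MAF-type site TGCTGAC. The Plet1 window held a C/EBP-type match at position -198, an AP-1 match at position -144 and a half-site at position -62, counted from the start site. The C/EBP-type match and the half-site are on the opposite strand, and the 3 matches do not overlap. The Krt79 and Car4 windows held none. Of all 32851 windows of the same length in the table, 14.0% hold the half-site, 2.4% the PU.1-type site, 6.7% the AP-1 site, 6.0% the E-box, 9.6% the C/EBP-type site and 3.8% the MAF-type site. Of the 9 members 7 had an entry, and among the other windows only a Kcnip4 start matched, to AP-1 and the half-site. A match describes letters in the window and says nothing of a factor's presence there.

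After bleomycin the EGFP+ AMs kept most of their Plet1, held more Car4 and had lost most of their keratin message. At day 14, 8 of the 9 members were lower than in PBS AMs and 1, Car4, was higher (edgeR quasi-likelihood test, Benjamini-Hochberg adjusted p under 0.05), where 27.6% of the 14706 genes tested were called lower and 27.3% higher, 54.9% in all. At day 30, 7 were lower and 2, Car4 and Slc39a2, were higher, where 23.1% of genes were called lower and 24.8% higher, 47.9% in all. The median log2 fold change of the members was -1.58 at day 14 and -1.51 at day 30, against -0.01 and 0.02 over all genes tested. As a share of the PBS AM level, the median member stood at 29.5% at day 14 and 32.4% at day 30, from 3.39% for Krt79 to 201% for Car4 at day 14. Both comparisons use the same 3 PBS libraries. Treatment, the day of harvest and the deposited table differ together between them and PBS, and these cannot be told apart.

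The keratins fell furthest. Krt79 (chr15:101929332-101940324, GRCm38, minus strand) had 944, 940.1 and 930 CPM in the 3 PBS AM libraries, 26.5, 36.1 and 32.7 CPM at day 14, and 66.2, 55.8 and 65.8 CPM at day 30. The 3 groups did not overlap, and the order PBS, day 30, day 14 held for every library. Its log2 fold change was -4.70 ± 0.11 at day 14 (SE, edgeR adjusted p = 3.7e-15), 26.0-fold lower, and -3.79 ± 0.10 at day 30 (edgeR adjusted p = 1.4e-14), 13.8-fold lower. By its p-value it ranked 7 of the 14706 genes at day 14. Fold changes throughout are on the fit's scale, with TMM factors, and so differ a little from ratios of CPM.

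Krt19 (chr11:100140810-100148665, minus strand), which pairs with type II keratins in filaments, moved the same way at a smaller size. It had 902, 965.5 and 906 CPM in PBS AMs, 53.9, 59.1 and 45.2 CPM at day 14, and 156, 156 and 171 CPM at day 30. Again no group overlapped another. The log2 fold change was -3.95 ± 0.09 at day 14 (SE, edgeR adjusted p = 3.7e-15), 15.5-fold lower, and -2.41 ± 0.09 at day 30 (edgeR adjusted p = 7.2e-13), 5.31-fold lower. Both keratins thus stood higher at day 30 than at day 14, by 1.54 ± 0.09 log2 units for Krt19 (edgeR adjusted p = 8.8e-10) and by 0.91 ± 0.10 for Krt79 (edgeR adjusted p = 2.9e-06). The ratio of Krt79 counts to Krt19 counts was 0.974 to 1.05 in PBS AMs, 0.491 to 0.724 at day 14 and 0.359 to 0.424 at day 30. The ratio fell between groups without overlap, so Krt19 regained more of its level than Krt79 did by day 30.

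Perp (chr10:18845020-18857073, plus strand), the desmosome gene, was the least settled of the falls. Its levels were 147, 148 and 149 CPM in PBS AMs, 125, 77.5 and 66.6 CPM at day 14, and 59.5, 52.6 and 56.7 CPM at day 30. The day 14 libraries were spread widely and the day 30 libraries all lay below them. The log2 fold change was -0.54 ± 0.19 at day 14 (SE, edgeR adjusted p = 0.032) and -1.28 ± 0.19 at day 30 (edgeR adjusted p = 0.00031). The day 14 call was lost in DESeq2 (adjusted p = 0.0504), in a fit of all 24 libraries (edgeR adjusted p = 0.194), and in edgeR without day 14 AM replicate 2 (adjusted p = 0.162), day 14 AM replicate 3 (adjusted p = 0.0742) or PBS AM replicate 1, 2 or 3 (adjusted p = 0.0705, 0.0755 and 0.0708).

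Markers of epithelium, which shares Krt19, Perp and Plet1, moved in the same AM libraries. Their sum over 13 genes was 401 to 410 CPM in PBS AMs, 121 to 133 CPM at day 14 and 171 to 224 CPM at day 30, with 9 of 12 tested genes lower and 1 higher at day 14. Sftpc, a surfactant gene, averaged 56.6 CPM in PBS AMs, 1.43 CPM at day 14 and 21.6 CPM at day 30, and Scgb1a1, a club cell gene, 52.0, 1.11 and 88.2 CPM. The simple-epithelium keratins Krt8 and Krt18 were at 0.672 and 0.476 CPM in PBS AMs, where Krt19 was at 925 CPM. In WT PBS IMs, where the epithelial sum was 4556 to 6751 CPM, Krt8 was at 18.0 CPM and Krt19 at 12.4 CPM. Markers of monocytes and IMs rose with the fall of the members at day 14: their sum over 9 genes was 3343 to 3906 CPM, against 989 to 1127 CPM in PBS AMs, with 6 higher and 1 lower. At day 30 they summed to 1063 to 1280 CPM, with 7 higher and 1 lower than in PBS AMs. C1qa, a complement gene of IMs, averaged 13.3 CPM in PBS AMs, 325 CPM at day 14 and 183 CPM at day 30, while Itgam was not called at day 14. B cell markers summed to 82.4 to 110.06 CPM in PBS AMs, 4.11 to 5.57 CPM at day 14 and 44.0 to 65.1 CPM at day 30, with 4 of 4 lower at day 14. Neutrophil markers summed to 99.5 to 162, 44.9 to 72.9 and 475 to 566 CPM in the same order, with 6 of 7 tested lower at day 14 and 5 of 7 higher at day 30. Fibroblast markers summed to 6.76 to 9.80, 2.90 to 6.81 and 69.2 to 76.2 CPM, with 5 of 5 higher at day 30 than in PBS AMs. T and NK cell markers were higher at day 30 in 7 of 8 cases. The part of these cells' RNA in the members' changes was not tested.

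Siglecf (chr7:43351341-43359531, plus strand) was lower at the RNA level although every AM library was sorted for its protein. It had 428, 410.5 and 406 CPM in PBS AMs, 108, 133 and 126 CPM at day 14, and 139, 133 and 132 CPM at day 30. All bleomycin libraries lay far below all PBS libraries, and day 14 and day 30 overlapped. Its log2 fold change was -1.58 ± 0.08 at day 14 (SE, edgeR adjusted p = 6.7e-11), 2.98-fold lower, and -1.51 ± 0.08 at day 30 (edgeR adjusted p = 1.2e-10), 2.85-fold lower. Eosinophils also carry Siglecf: their 5 markers summed to 6.09 to 8.67 CPM in PBS AMs, 6.54 to 82.6 CPM at day 14 and 5.52 to 8.73 CPM at day 30, the high value being the Ear6 gene, and the defining granule gene Epx was at 0 in all day 14 and day 30 AM libraries. Of 3 tested eosinophil markers, 2 (Prg2 and Il5ra) were lower at day 14 than in PBS AMs and 1 (Ear6) was higher. The part of eosinophil RNA in the Siglecf values was not tested.

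Plet1 (chr9:50494525-50505482, plus strand) remained the highest member by CPM at each stage. It had 1281, 1280.0 and 1349 CPM in PBS AMs, 892, 985 and 919 CPM at day 14, and 1033, 909.9 and 894 CPM at day 30. Bleomycin groups lay below PBS and overlapped each other. The log2 fold change was -0.30 ± 0.07 at day 14 (SE, edgeR adjusted p = 0.0025) and -0.35 ± 0.07 at day 30 (edgeR adjusted p = 0.00087), the smallest changes among the members at both days. In a fit of all 24 libraries neither passed (edgeR adjusted p = 0.0994 and 0.0544). An antisense gene, Plet1os, overlaps Plet1, and its CPM was 32.8% to 45.9% of that of Plet1 in all 24 libraries. The strand setting of the counting is not stated, so reads of the pair cannot be told apart, and the Plet1 values may include antisense reads.

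Car4 (chr11:84957786-84966044, plus strand) was the only member called higher than in PBS AMs at both bleomycin days. It had 313, 304 and 321 CPM in PBS AMs, 720.5, 549 and 615 CPM at day 14, and 397, 411 and 389 CPM at day 30. No group overlapped another, and the order from low to high was PBS, day 30, day 14. The log2 fold change was 1.19 ± 0.09 at day 14 (SE, edgeR adjusted p = 1.1e-08), 2.29-fold higher, and 0.47 ± 0.09 at day 30 (edgeR adjusted p = 0.00042), 1.38-fold higher. In a fit of all 24 libraries the day 30 value did not pass (edgeR adjusted p = 0.121). Capillary endothelium also carries Car4, and its 8 markers summed to 16.4 to 20.3 CPM in PBS AMs, 4.11 to 5.20 CPM at day 14 and 11.7 to 15.3 CPM at day 30. Their part in the Car4 values was not tested.

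Slc39a2 (chr14:51892889-51896745, plus strand), the zinc importer, was the only member on opposite sides of PBS at the 2 bleomycin days. It had 61.03, 60.9 and 59.2 CPM in PBS AMs, 48.0, 38.2 and 31.3 CPM at day 14, and 79.4, 75.4 and 79.4 CPM at day 30. The 3 groups did not overlap. The log2 fold change was -0.44 ± 0.11 at day 14 (SE, edgeR adjusted p = 0.0029) and 0.49 ± 0.11 at day 30 (edgeR adjusted p = 0.0013). Mettl17 overlaps Slc39a2 on the same strand and was not called at either day (edgeR adjusted p = 0.066 and 0.673).

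Kcnip4 and Tc2n, the lowest members per kilobase in PBS AMs, fell at day 14 and were lower still on average at day 30. Kcnip4 (chr5:48389502-49524907, minus strand) had 8.44, 8.79 and 8.28 CPM in PBS AMs, 2.43, 1.93 and 2.20 CPM at day 14, and 1.46, 1.27 and 1.45 CPM at day 30. Its log2 fold change was -1.77 ± 0.20 at day 14 (SE, edgeR adjusted p = 1.3e-06) and -2.49 ± 0.21 at day 30 (edgeR adjusted p = 4.3e-08). The long Kcnip4 locus overlaps 31 other genes, mostly with few or no counts, so some reads may belong to them. Tc2n (chr12:101645443-101718523, minus strand) had 52.6, 47.6 and 47.6 CPM in PBS AMs, 16.0, 8.996 and 6.47 CPM at day 14, and 8.44, 5.92 and 6.58 CPM at day 30. The bleomycin groups overlapped each other and lay below PBS, with a log2 fold change of -2.05 ± 0.25 at day 14 (SE, edgeR adjusted p = 3.7e-05), 4.13-fold lower, and -2.70 ± 0.26 at day 30 (edgeR adjusted p = 6.3e-06), 6.51-fold lower. T and NK cells also carry Tc2n, and their 8 markers summed to 41.4 to 51.8 CPM in PBS AMs, 34.1 to 49.0 CPM at day 14 and 100.03 to 113 CPM at day 30.

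Set against their PBS level, the members fan out from the keratins to Car4.

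**Figure D2:**
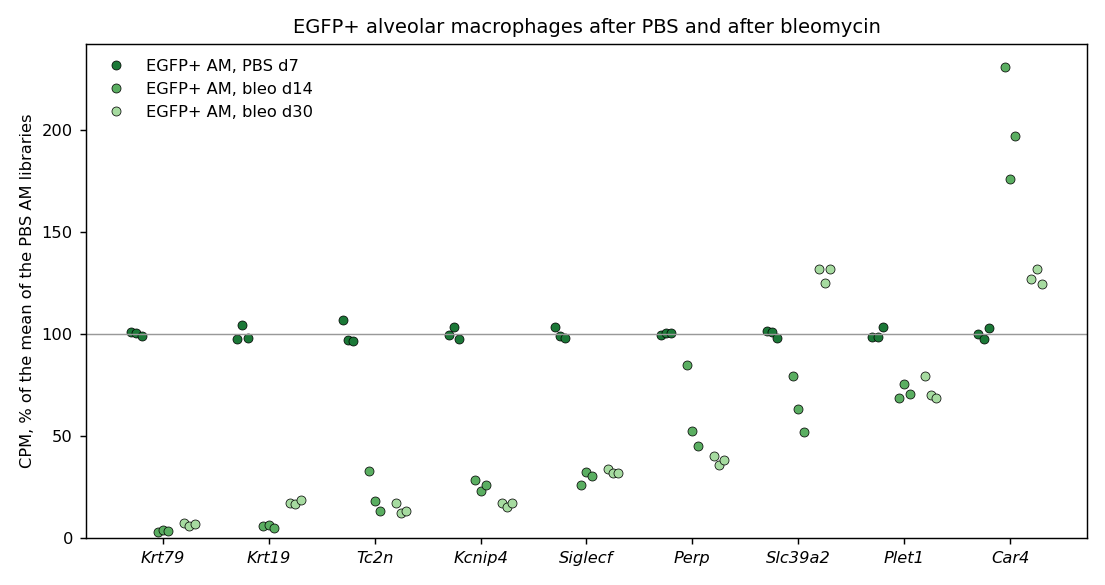
CPM in each EGFP+ AM library as a percentage of the mean of the 3 PBS AM libraries. Genes run from the largest fall at day 14 on the left to the rise of Car4 on the right, and day 30 lies above day 14 for Krt79, Krt19 and Slc39a2.

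Between day 14 and day 30, within 1 deposited table and without the PBS libraries, 3 members were higher at day 30 (Krt79, Krt19 and Slc39a2) and 3 were lower (Car4, Kcnip4 and Perp), where 19.6% of genes were called higher and 18.7% lower, 38.4% in all. Slc39a2 was 1.90-fold higher, at 0.93 ± 0.11 log2 units (SE, edgeR adjusted p = 6.8e-06), and the overlapping Mettl17 was higher by 0.47 (edgeR adjusted p = 0.039). Car4 was 1.66-fold lower, at -0.73 ± 0.09 (edgeR adjusted p = 1.0e-05), and Perp was 1.68-fold lower, at -0.74 ± 0.19 (edgeR adjusted p = 0.012), a call lost in a fit of all 24 libraries (adjusted p = 0.0928). Kcnip4, at -0.72 ± 0.24 (edgeR adjusted p = 0.024), lost its call without day 30 AM replicate 2 (adjusted p = 0.0643) or day 14 AM replicate 1 (adjusted p = 0.0668) and in DESeq2 (adjusted p = 0.0501), with no count filter (edgeR adjusted p = 0.0576), with all 24 libraries (0.112) or with these 6 alone (0.123). Siglecf at 0.06 ± 0.08, Plet1 at -0.05 ± 0.07 (0.02 when scaled by library totals) and Tc2n at -0.66 ± 0.28 log2 units did not pass (edgeR adjusted p = 0.562, 0.627 and 0.0859). Tc2n passed as lower without day 14 AM replicate 3 (edgeR adjusted p = 0.0055), in DESeq2 (adjusted p = 0.0247), with no count filter (edgeR adjusted p = 0.000696) and with all 24 libraries (0.039). Markers of several other cells were higher in the day 30 libraries: those of fibroblasts summed to 69.2 to 76.2 CPM at day 30, against 2.90 to 6.81 CPM at day 14, and those of neutrophils to 475 to 566 CPM, against 44.9 to 72.9 CPM. Their part in these differences was not tested.

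Other genes of AMs did not follow the members as a group. Of 20 further AM genes, 4 were called higher and 7 lower at day 14, with a median log2 fold change of 0.12, and 5 higher and 7 lower at day 30, with a median of -0.15. As a share of the PBS level their median stood at 95.6% at day 14 and 83.6% at day 30. The 4 with the smallest p at day 14 had all fallen. Cidec, a lipid droplet protein, averaged 448 CPM in PBS AMs, 28.2 CPM at day 14 and 42.2 CPM at day 30, and fell by 3.81 log2 units at day 14 (edgeR adjusted p = 2.9e-13). Fabp1, a fatty acid carrier, averaged 146, 4.90 and 8.44 CPM and fell by 4.73 (edgeR adjusted p = 2.6e-09), and Ear1, an RNase of AMs, averaged 538, 54.8 and 155 CPM and fell by 3.11 (edgeR adjusted p = 2.1e-12). Abcg1, a cholesterol exporter, averaged 1768, 718 and 879 CPM and fell by 1.12 (edgeR adjusted p = 6.4e-10). Pparg, the nuclear receptor that AMs need to mature, had a log2 fold change of 0.01 ± 0.07 at day 14 and Marco, a scavenger receptor, one of 0.59 ± 0.62, and neither passed (edgeR adjusted p = 0.895 and 0.459).

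Relatives of the members by family did not move as one group either. Of 11 other keratin and junction genes 6 were tested in AMs, and 1 was called higher and 3 lower at day 14. Jup, the plakoglobin of desmosomes and adherens junctions, averaged 123 CPM in PBS AMs, 39.5 CPM at day 14 and 43.2 CPM at day 30, and fell by 1.45 log2 units at day 14 (edgeR adjusted p = 1.7e-09). Krt80, a type II keratin, averaged 13.2, 18.1 and 16.0 CPM and rose by 0.65 log2 units at day 14 (edgeR adjusted p = 0.0014). Of 12 tested zinc transporters of the Slc39 family 4 were higher and 2 lower at day 14. Slc39a1, a widely expressed member, averaged 140 CPM in PBS AMs, 198 CPM at day 14 and 157 CPM at day 30. Of 8 tested carbonic anhydrases other than Car4, 2 were higher and 2 lower at day 14, and Car13, a cytosolic member, averaged 5.82, 14.1 and 19.5 CPM. Of 7 tested genes of other Siglecs 1 was higher and 3 lower at day 14. Siglec1, which encodes sialoadhesin, averaged 416, 448 and 456 CPM and was not called at day 14 (edgeR adjusted p = 0.0677). The 3 other Kcnip genes were below the count filter in AMs and were not tested.

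The second question is how far the 9 genes part AMs from IMs. At day 14 after bleomycin, with genotype, EGFP sort, day and deposited table in common, all 9 were higher in EGFP+ AMs than in EGFP+ IMs, where 10.2% of the 13460 genes tested were called higher and 21.0% either way. After PBS, all 9 were higher in EGFP+ AMs of reporter mice than in WT IMs, where 39.7% of the 15828 genes tested were called higher and 39.2% lower, 78.9% in all. In the PBS comparison gate, genotype and EGFP sort cannot be told apart. The median log2 fold change of the members was 4.53 at day 14 and 5.50 after PBS, against -0.01 and 0.01 over all genes tested. Siglecf stands close to the sort itself. At day 14 Krt79, Krt19, Kcnip4 and Tc2n passed the count filter only through the AM libraries, so their calls, and the count of 9, carry no weight as support. After PBS Kcnip4 and Slc39a2 reached the level of the filter in all 3 AM libraries, but in only 1 and 2 IM libraries. Both passed only through the AM group there, so their calls, and the PBS count of 9, carry no weight either. The AM and IM libraries of day 14 share their replicate numbers and varied in pairs, and a fit with the number as a block called the same 9.

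At day 14 the keratins gave the widest gap of the 8 members with counts in both gates. Krt79 had 26.5, 36.1 and 32.7 CPM in day 14 AMs, against 0.143, 0.0638 and 0.184 CPM in day 14 IMs, a 211-fold difference (log2 fold change 7.72 ± 0.30, SE, edgeR adjusted p = 2.0e-07). After PBS it averaged 938 ± 7.66 CPM in AMs and 4.77 ± 0.614 CPM in IMs (SD, n = 3 each), 197-fold higher in AMs. Krt19 had 53.9, 59.1 and 45.2 CPM in day 14 AMs, against 0.214, 0.383 and 0.246 CPM in day 14 IMs, 167-fold higher (7.38 ± 0.24, SE, edgeR adjusted p = 1.6e-07). After PBS it averaged 925 ± 35.6 CPM in AMs and 12.4 ± 2.72 CPM in IMs (SD, n = 3 each), 74.8-fold higher. The day 14 IM values rest on 6 counts for Krt79 and 13 for Krt19 over the 3 libraries, so the size of both gaps is uncertain. After PBS the Krt19 gap was narrower than those of Slc39a2 (93.2-fold) and Plet1 (85.1-fold). Tc2n had 459 counts in the 3 day 14 AM libraries and 0 in the 3 day 14 IM libraries, which makes it at least 160.65-fold higher against a floor of 3 counts over the group, so that its place beside the keratins at day 14 is not known. After PBS Tc2n averaged 49.3 ± 2.84 CPM in AMs and 2.91 ± 0.269 CPM in IMs (SD, n = 3 each), 16.9-fold higher.

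At day 14 the surface genes were separated by smaller factors than the keratins. Plet1 had 892, 985 and 919 CPM in AMs, against 24.6, 37.9 and 31.9 CPM in IMs, 27.1-fold higher (log2 fold change 4.76 ± 0.22, SE, edgeR adjusted p = 5.3e-07). Car4 had 720.5, 549 and 615 CPM in AMs, against 37.2, 25.2 and 14.5 CPM in IMs, 23.0-fold higher (4.53 ± 0.30, edgeR adjusted p = 1.3e-05). Siglecf had 108, 133 and 126 CPM in AMs, against 2.43, 9.57 and 10.3 CPM in IMs, 14.8-fold higher (3.89 ± 0.51, edgeR adjusted p = 0.0030). IM replicate 1 was the low one of these. After PBS the gaps were 85.1-fold for Plet1, 45.2-fold for Car4 and 38.1-fold for Siglecf, with IM means of 15.4, 6.92 and 10.9 CPM.

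Perp, Slc39a2 and Kcnip4 had the narrowest gaps at day 14. Perp had 125, 77.5 and 66.6 CPM in AMs, against 14.4, 4.72 and 1.599 CPM in IMs, 12.6-fold higher (log2 fold change 3.65 ± 0.73, SE, edgeR adjusted p = 0.021). In both gates replicate 1 was highest and replicate 3 lowest for Perp. Its call was lost without day 14 IM replicate 2 (edgeR adjusted p = 0.0964) or with no count filter (adjusted p = 0.0715), and its log2 fold change was 4.67 without day 14 IM replicate 1. Slc39a2 had 48.0, 38.2 and 31.3 CPM in AMs, against 3.29, 5.43 and 4.24 CPM in IMs, 8.28-fold higher (3.05 ± 0.24, edgeR adjusted p = 1.3e-05). Kcnip4 had 2.43, 1.93 and 2.20 CPM in AMs, against 0.572, 0 and 0.553 CPM in IMs, 5.35-fold higher (2.42 ± 0.67, edgeR adjusted p = 0.026), and lost its call without any 1 of the 3 AM replicates (edgeR adjusted p = 0.0893, 0.0788 and 0.0848). After PBS the gaps were 38.5-fold for Perp, 93.2-fold for Slc39a2 and 19.6-fold for Kcnip4.

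Fold differences for both pairs of gates are drawn side by side.

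**Figure D3:**
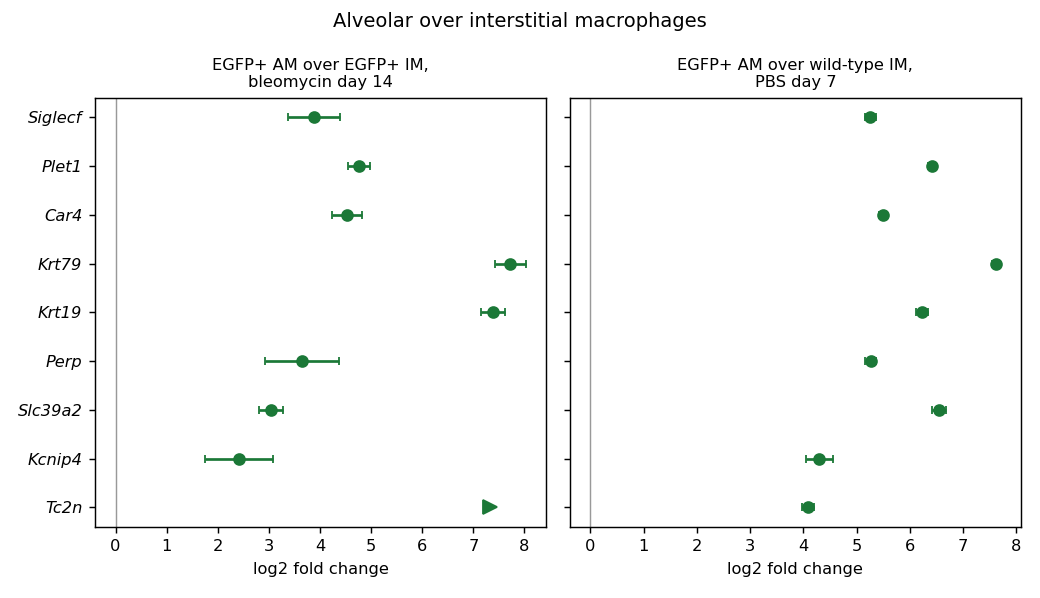
Log2 fold change of EGFP+ AMs over EGFP+ IMs at day 14 after bleomycin (left) and of EGFP+ AMs over WT IMs after PBS (right), with SE bars, n = 3 libraries per group. The triangle marks the lower bound for Tc2n, whose IM libraries had no counts, and every value lies above 0.

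Of the 20 further AM genes, 14 of 19 tested were higher in AMs than in IMs at day 14, with a median log2 fold change of 1.69, and 19 of 20 after PBS, with a median of 4.24. The 4 with the smallest p at day 14 were Ear1 at 54.8 CPM in AMs and 0.698 CPM in IMs, Cidec at 28.2 and 0.521 CPM, Il18 (a cytokine gene) at 197 and 26.1 CPM, and Abcg1 at 718 and 206 CPM, each mean of AMs before that of IMs. Lpl, Itgax, Mrc1, Bhlhe40 and Fabp4 were among the 20 and did not pass at day 14. Among the families, only Siglec genes gave calls toward AMs at day 14, with Siglec1, Siglece and Cd33 higher (3 of 6 tested). After PBS, 6 of 8 tested keratin and junction genes were lower in AMs and 1 was higher. Krt8, at -4.72, and Krt18, at -4.85 log2 units, lay on the opposite side from Krt79 and Krt19. Epithelial markers, a list that includes Krt8 and Krt18, were lower in AMs in 11 of 13 cases and higher in 2. They summed to 401 to 410 CPM in PBS AMs, against 4556 to 6751 CPM in WT PBS IMs. The part of epithelial RNA in these differences was not tested.

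Within the IM gate the 9 genes were low everywhere, and the order of the groups differed from gene to gene. The first comparison asks whether EGFP+ IMs differ from EGFP- IMs at day 7 after bleomycin. Of the 7 members tested, 3 were higher in EGFP+ IMs, where 17.2% of the 14967 genes tested were called higher and 34.8% either way, and 0 were lower (0 at an unadjusted p under 0.05, 0 by DESeq2). Siglecf, however, was called lower in a fit of all 24 libraries (edgeR adjusted p = 0.0311) and when only the 2 groups were fitted (edgeR adjusted p = 1.2e-05). Krt79 had 1.497, 2.70 and 3.47 CPM in EGFP+ IMs, against 0.214, 0 and 0.0595 CPM in EGFP- IMs (log2 fold change 4.67 ± 0.65, SE, edgeR adjusted p = 0.00036). These were 24, 41 and 56 counts against 3, 0 and 1. Krt79 passed the count filter only through the EGFP+ day 7 libraries, so it had to differ, and its call is a description. Without EGFP- IM replicate 1 the log2 fold change was 5.92. Slc39a2 had 4.74, 5.81 and 7.44 CPM in EGFP+ IMs, against 0.427, 0.280 and 0.535 CPM in EGFP- IMs, 13.5-fold higher (3.76 ± 0.35, edgeR adjusted p = 4.3e-05). Car4 had 12.9, 12.7 and 27.6 CPM in EGFP+ IMs, against 3.99, 4.55 and 6.18 CPM in EGFP- IMs, 3.45-fold higher (1.79 ± 0.41, edgeR adjusted p = 0.010). None of these 3 overlapped between groups, but neither did others: 7 of the 9 members in all were separated. The share of all genes so separated was not counted. The separation is a description and adds no support to calls from the same libraries. Slc39a2 reached the level of the count filter in no EGFP- library. It passed only through EGFP+ libraries, so its call is a description as well. With Krt79 and Slc39a2 in it, the count of 3 carries no weight as support.

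The other members did not pass in this comparison. Krt19 averaged 3.46 ± 3.18 CPM in EGFP+ IMs and 1.18 ± 0.290 CPM in EGFP- IMs (SD, n = 3 each), with replicate 1 of the EGFP+ IMs at 0.873 CPM, below all EGFP- libraries, and it passed without that replicate (edgeR adjusted p = 0.0095). Siglecf had 16.6, 15.2 and 14.5 CPM in EGFP+ IMs, against 25.1, 24.5 and 25.7 CPM in EGFP- IMs, a log2 fold change of -0.75 ± 0.39 (SE, edgeR adjusted p = 0.169). The groups did not overlap, and a fit of these 6 libraries alone called Siglecf lower (edgeR adjusted p = 1.2e-05), while the fit reported here also holds the day 14 IMs. The same 6-library fit called Perp higher (edgeR adjusted p = 0.0027), at 2.59 ± 0.885 CPM in EGFP+ IMs and 0.889 ± 0.406 CPM in EGFP- IMs (SD, n = 3 each). Plet1 averaged 56.8 ± 16.3 CPM in EGFP+ IMs and 41.8 ± 1.11 CPM in EGFP- IMs (SD, n = 3 each, edgeR adjusted p = 0.182). Kcnip4, with 14 counts in EGFP+ IMs and 16 in EGFP- IMs, and Tc2n, with 15 and 1, were below the count filter, and the Tc2n ratio of 14.3 has a counting interval of 2.20 to 602 (exact, 95%). Of the 20 further AM genes 12 of 17 tested were higher in EGFP+ IMs. Neutrophil markers were lower in EGFP+ IMs in 8 of 8 cases, summing to 1934 to 2660 CPM, against 4427 to 5892 CPM in EGFP- IMs, and their part was not tested.

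The second comparison within the gate sets EGFP+ IMs at day 14 against day 7, across both deposited tables, so that day and table cannot be told apart. Of 7 members tested, 3 were lower at day 14, where 26.9% of genes were called lower, 25.3% higher and 52.2% in all, and 0 were higher, although 1 (Perp) had an unadjusted p under 0.05 and was called by DESeq2 (adjusted p = 0.0227). Krt79 had 0.143, 0.0638 and 0.184 CPM at day 14, against 1.497, 2.70 and 3.47 CPM at day 7, 15.9-fold lower (log2 fold change -3.99 ± 0.61, SE, edgeR adjusted p = 0.00024). Krt19 had 0.214, 0.383 and 0.246 CPM at day 14, against 0.873, 2.51 and 7.01 CPM at day 7, 10.2-fold lower (-3.35 ± 0.73, edgeR adjusted p = 0.0029), and its log2 fold change was -2.32 without day 7 EGFP+ IM replicate 3. Both keratins had 1 to 6 counts per library at day 14, and Krt79 passed the count filter only through the day 7 libraries, so that its call is a description. The count of 3 members called lower thus carries no weight as support. Plet1 had 24.6, 37.9 and 31.9 CPM at day 14, against 42.9, 52.6 and 74.7 CPM at day 7 (-0.61 ± 0.21, edgeR adjusted p = 0.034). Its call was lost without day 14 IM replicate 1 or 3 (edgeR adjusted p = 0.0581 and 0.0675) and without day 7 EGFP+ IM replicate 2 or 3 (edgeR adjusted p = 0.0532 and 0.124), with no count filter (0.0841) or with these 6 libraries alone (0.0676).

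The other members did not pass between the days, and most were widely spread within the day 14 IMs. Perp averaged 6.90 ± 6.65 CPM at day 14 and 2.59 ± 0.885 CPM at day 7 (SD, n = 3 each, edgeR adjusted p = 0.0702), and passed as higher without day 14 IM replicate 3 (edgeR adjusted p = 0.0039). Car4 averaged 25.7 ± 11.4 CPM at day 14 and 17.7 ± 8.55 CPM at day 7 (SD, n = 3 each, edgeR adjusted p = 0.124), and passed as higher without day 7 EGFP+ IM replicate 3 (edgeR adjusted p = 0.0138). Siglecf averaged 7.42 ± 4.34 CPM at day 14 and 15.4 ± 1.06 CPM at day 7 (SD, n = 3 each, edgeR adjusted p = 0.137), with no overlap between days, and passed as lower without day 14 IM replicate 1 (edgeR adjusted p = 0.0211). Slc39a2 averaged 4.32 ± 1.07 CPM at day 14 and 6.00 ± 1.36 CPM at day 7 (SD, n = 3 each, edgeR adjusted p = 0.467). Tc2n had 0 counts at day 14, against 15 at day 7, at least 4.85-fold lower against a floor of 3 counts over the group. Kcnip4 had 17 counts at day 14 and 14 at day 7. Epithelial markers summed to 87.5 to 150 CPM at day 14, against 161 to 283 CPM at day 7, with 10 of 13 lower, and neutrophil markers to 107 to 169 CPM, against 1934 to 2660 CPM; their part was not tested.

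The third comparison within the gate, WT IMs at day 7 after bleomycin and after PBS, gave calls in both directions. Of 8 tested, 2 were higher after bleomycin and 5 lower, where 35.6% of the 15496 genes tested were called higher, 34.5% lower and 70.2% in all, and the calls did not change when any 1 library was left out. Slc39a2, Krt79 and Tc2n are among these calls and passed the count filter only through the group where they were higher. The counts of 2 and 5, and their holding when a library was left out, thus carry no weight as support. Plet1 had 36.7, 40.7 and 45.9 CPM after bleomycin, against 17.6, 13.8 and 14.8 CPM after PBS, 2.59-fold higher (log2 fold change 1.37 ± 0.10, SE, edgeR adjusted p = 3.1e-11). Slc39a2 had 3.51, 3.98 and 2.30 CPM after bleomycin, against 0.594, 0.550 and 0.792 CPM after PBS, 4.88-fold higher (2.29 ± 0.34, edgeR adjusted p = 3.0e-06). Both groups of libraries stood apart for these genes. Slc39a2 reached the level of the count filter in all 3 bleomycin libraries, but in only 1 PBS library. It passed only through the bleomycin group, so its call is a description. In AMs Plet1 and Slc39a2 had been lower at day 14, and Slc39a2 higher at day 30.

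The keratins, Perp, Car4 and Tc2n were lower in WT IMs after bleomycin. Krt79 had 0.484, 0.112 and 0.372 CPM after bleomycin, against 5.28, 4.95 and 4.09 CPM after PBS, 15.2-fold lower (log2 fold change -3.92 ± 0.36, SE, edgeR adjusted p = 1.6e-09). Krt19 had 1.88, 1.01 and 2.61 CPM after bleomycin, against 15.2, 12.1 and 9.83 CPM after PBS, 7.05-fold lower (-2.82 ± 0.25, edgeR adjusted p = 1.9e-08). Car4 had 2.24, 1.68 and 2.79 CPM after bleomycin, against 6.87, 6.97 and 6.93 CPM after PBS, 3.20-fold lower (-1.68 ± 0.21, edgeR adjusted p = 2.2e-07). Each of these was higher in every PBS library than in any bleomycin library. Krt79 and Tc2n passed the count filter only through the PBS libraries, so their calls are descriptions. Perp averaged 1.24 ± 0.188 CPM after bleomycin and 3.87 ± 1.06 CPM after PBS (SD, n = 3 each), 3.19-fold lower (edgeR adjusted p = 1.7e-05). Tc2n had 2 counts in the bleomycin libraries and 136 in the PBS libraries, a ratio of 0.0136 with a counting interval of 0.00163 to 0.04999 (exact, 95%). Siglecf, at 12.5 ± 0.426 CPM after bleomycin and 10.9 ± 2.22 CPM after PBS (SD, n = 3 each), did not pass (edgeR adjusted p = 0.335), and Kcnip4, with 30 counts after bleomycin and 20 after PBS, was below the count filter.

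RNA of other cells moved with these 5 falls. The epithelial sum was 230 to 258 CPM after bleomycin, against 4556 to 6751 CPM after PBS, with 10 of 13 markers lower and 3 higher. The endothelial sum was 33.6 to 35.4 CPM, against 84.5 to 91.4 CPM, with 6 of 7 tested lower. Neutrophil markers summed to 1478 to 1513 CPM after bleomycin, against 6604 to 7928 CPM after PBS, with 8 of 8 lower. B cell markers summed to 112 to 137 CPM, against 507 to 592 CPM, with 4 of 4 lower, and fibroblast markers to 36.9 to 41.2 CPM, against 141 to 189 CPM, with 5 of 5 lower. T and NK cell markers were higher in 4 of 8 cases, and monocyte and IM markers in 8 of 9. All 7 tested keratin and junction genes other than the members were lower as well, Krt8 averaging 0.960 CPM after bleomycin and 18.0 CPM after PBS. Of the AM genes, Cidec averaged 0.399 CPM after bleomycin and 2.43 CPM after PBS, and Ear1 0.335 and 1.55 CPM in the same order, both lower (edgeR adjusted p = 9.1e-06 and 0.00057). Over the whole list of 20 further AM genes, 11 of 18 tested were higher and 5 lower. The part of the RNA of any of these cells in the members' values was not tested.

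The 3 comparisons within the IM gate are drawn together.

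**Figure D4:**
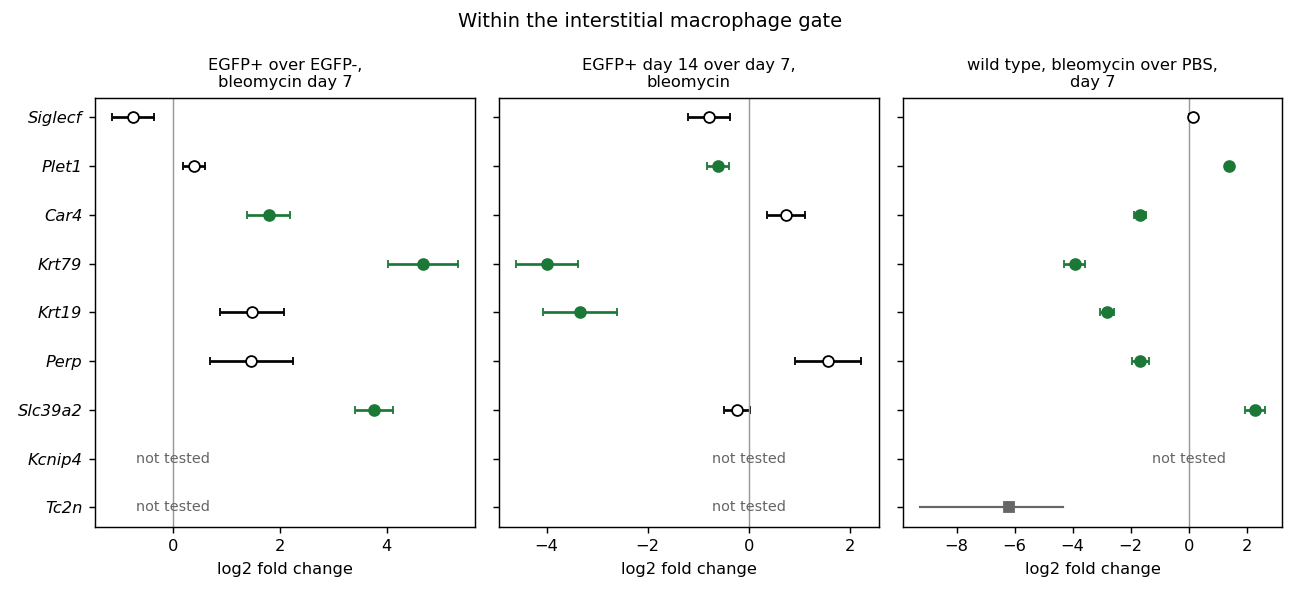
Log2 fold changes within the IM gate, from left to right EGFP+ over EGFP- IMs at day 7, EGFP+ IMs at day 14 over day 7, and WT IMs after bleomycin over PBS, with SE bars and n = 3 libraries per group. Filled points passed the test, open points did not, and the grey square is the count ratio of Tc2n with its exact counting interval, so that Krt79 lies right of 0 in the first panel and left of 0 in the other 2.

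Over all 8 groups the order of mean levels had PBS AMs on top for 7 members. The exceptions were Car4, with day 14 AMs on top, and Slc39a2, with day 30 AMs on top. Neighbours in the order that overlapped within AMs were day 30 and day 14 for Siglecf, Plet1 and Tc2n. Below the AMs, WT PBS IMs came next for Krt79, Krt19 and Tc2n, EGFP+ IMs at day 7 for Plet1 and Slc39a2, EGFP+ IMs at day 14 for Car4 and Perp, and EGFP- IMs at day 7 for Siglecf. For Kcnip4 all 5 IM groups overlapped their neighbours, with means of 0.294 to 0.594 CPM. Tc2n had EGFP+ IMs at day 14 at the bottom with no count, and Krt79 had EGFP- IMs at day 7 at the bottom with 0.0910 CPM, which overlapped the day 14 EGFP+ IMs.

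Genes whose pattern over the 8 group means was closest to the mean profile of the members were Vstm2a (Pearson r 0.998), Adipor2 (0.997), Slc9a2 (0.996), C530008M17Rik (0.996) and Park2 (0.993), out of 10381 genes with at least 10 CPM in their highest group. These r values are descriptions over 8 points that share libraries, and the gap between 3 AM and 5 IM groups sets most of them. Vstm2a averaged 75.6 CPM in PBS AMs, 25.8 CPM at day 14, 22.7 CPM at day 30 and 0.0712 to 0.482 CPM in the IM groups. Member by member, Cidec was closest to Krt79 (0.996), Sema3e to Krt19 (0.989), Rims3 to Siglecf (0.989), Plet1os to Plet1 (0.999), Dirc2 to Car4 (0.986), Slc6a4 to Perp (0.993), Aida to Slc39a2 (0.991), Gal to Kcnip4 (0.987) and Ocln to Tc2n (0.995).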

How the data were processed

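The tools named in the submitters' processing notes are featureCounts 1.6.3 for counting, HISAT2 2.1.0 for alignment (build GRCm38), Trimmomatic 0.38, FastQC 0.11.5 and SAMtools without a version. The annotation release and strand setting are not given in the sources used here. The authors deposited raw counts per gene in 2 tables, of 49585 genes for 15 libraries and 55487 genes for 9 libraries. Another 3 columns match no sample and were not used. Tables were joined by Ensembl ID, and the 49022 shared genes hold at least 99.486% of each library's counts.

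Here edgeR 4.0.16 (limma 3.58.1, R 4.3.3) fitted group means with TMM factors and its default count filter by group, on the whole shared table, with 2-sided quasi-likelihood tests and Benjamini-Hochberg adjustment over all genes tested. A gene was called at an adjusted p under 0.05. The SE of a log2 fold change is its size over the square root of F. AM comparisons were fitted on the 9 AM libraries, comparisons of reporter IMs on their 9 libraries, and the others on the 6 libraries compared. Fits were tested on simulated counts with a single fixed spread for all genes and libraries. That test does not cover groups as variable as the EGFP+ IMs at day 14. No molecular identifiers are named, so intervals and floors describe counting error alone. No 2 libraries of a group agreed within sampling noise.

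The members and lists were chosen with earlier results of these data known. All 9 members are named. Of the 20 further AM genes, the text names the 4 with the smallest p in 2 comparisons, and the other list members named were picked after their values were seen. Replicate numbers paired the day 14 AM and IM libraries, with correlations of same-numbered deviations of 0.328, 0.246 and 0.304 over 10665 genes. Alternatives were DESeq2 1.42.0, RLE size factors, no count filter, other sets of libraries, a replicate block, unchanged gene models, leaving out each library and, chosen after seeing the data, scaling by the library total.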

Additional observations from a re-analysis of the deposited data

Results flagged for a closer look

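A difference between the 2 bleomycin days, tested within the EGFP+ AMs, marked 6 members for a closer look. As log2 fold changes of day 30 over day 14, Krt79 was at 0.91, Krt19 at 1.54 and Slc39a2 at 0.93, while Car4 was at -0.73, Kcnip4 at -0.72 and Perp at -0.74. All 3 libraries of one day lay on one side of all 3 libraries of the other day for each of these 6. They were picked by a test on these same libraries, so the separation is a description and adds no support. The share of all genes so separated was not counted. The direction away from PBS was undone in part for Krt79, Krt19 and Car4, was extended for Kcnip4 and Perp, and turned round for Slc39a2.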

How the results depend on the processing

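Of 870 values of single members under alternatives, 820 kept their direction and their side of the threshold, 28 kept the direction but no longer passed, 19 newly passed and 3 changed sign. The 3 that changed sign had not passed as reported: Plet1, day 30 over day 14 in AMs, at 0.0204 with library totals, Siglecf in the same comparison at -0.0196 without day 14 AM replicate 1 (up to 0.1013 without day 14 AM replicate 2), and Siglecf in WT IMs at -0.0032 without WT PBS replicate 1 (up to 0.2567 without WT PBS replicate 3). With all 24 libraries in one fit, 1 member was called higher in day 30 over PBS AMs, 5906 genes were called in AMs over IMs at day 14, 6 members were higher and 1 lower in EGFP+ over EGFP- IMs, and 2 were higher and 5 lower in EGFP+ IMs at day 14 over day 7. Fitting only the 2 groups made 1 member lower in EGFP+ over EGFP- IMs, and DESeq2 made 1 higher in EGFP+ IMs at day 14 over day 7. The cause was not tested.

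Leaving out 1 library at a time gave these lowest and highest counts of called genes: 6960 and 8277 for AMs at day 14 over PBS, 5878 and 6608 at day 30 over PBS, 4589 and 5766 at day 30 over day 14, 1840 and 3326 for AMs over IMs at day 14, 12146 and 12594 after PBS, 3280 and 4221 for EGFP+ over EGFP- IMs, 6579 and 8551 for EGFP+ IMs at day 14 over day 7, and 10362 and 10907 for WT IMs. The count moved by over 1.5 times without day 14 AM replicate 2 (1840) or 3 (1881), against 2832, and without day 7 EGFP+ IM replicate 2 (3280), against 5206. Members called higher ranged from 0 to 1 in EGFP+ IMs at day 14 over day 7, members called lower from 2 to 4 in AMs at day 30 over day 14 and from 2 to 3 in EGFP+ IMs at day 14 over day 7, members called lower from 7 to 8 in AMs at day 14 over PBS, and members called higher from 8 to 9 in AMs over IMs at day 14 and from 3 to 4 in EGFP+ over EGFP- IMs.

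Scaling by the library total moved the median of all genes by -0.185 log2 units in AMs at day 14 over PBS, -0.114 at day 30 over PBS, 0.114 in AMs over IMs at day 14 and -0.222 in EGFP+ IMs at day 14 over day 7. The share of calls that were higher was 49.7% as reported and 32.2% with library totals in AMs at day 14 over PBS, 51.8% and 39.1% at day 30 over PBS, 51.2% and 62.4% at day 30 over day 14, 48.7% and 61.7% in AMs over IMs at day 14, and 48.4% and 27.8% in EGFP+ IMs at day 14 over day 7. No member call changed except Siglecf, which passed as lower in EGFP+ IMs at day 14 over day 7 (edgeR adjusted p = 0.0478).

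With the replicate block, 3648 genes were called in AMs over IMs at day 14, against 2832 without it, and no member call changed there. In the other comparisons the samples share only a number, with same-number correlations from -0.114 to 0.212. The block changed 1 member call there, Tc2n in AMs at day 30 over day 14, which passed as lower (edgeR adjusted p = 0.0194). Depth limits Kcnip4, Tc2n and Krt79 in IMs, where a group held 14 to 30 counts for Kcnip4, 0 to 136 for Tc2n and 4 to 223 for Krt79. It also limits Krt19 and Slc39a2 there, with 13 to 578 counts per group for Krt19 and 19 to 284 for Slc39a2.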
